A study of Homo sapiens with 6 samples.

Results

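The genes described here encode the subunits of the nuclear RNA polymerases I, II and III, of the mitochondrial RNA polymerase POLRMT and of the Integrator complex. They were chosen by symbol, from all array probes annotated to POLR1, POLR2 or POLR3 followed by a letter, to POLRMT, or to INTS followed by a number, under old or current names. The rule found 87 of 47322 probes and 52 of 20046 named genes. Of these, 73 probes named 49 subunit genes, and 14 probes named the pseudogenes POLR2J4 and INTS4P2 and the antisense gene INTS6-AS1. CRCP entered through its older polymerase III names. No intensity or fold change entered the rule, but the family was proposed with earlier results of these data known, so its counts and medians are descriptions. INTS14 was not analysed here.

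Polymerase I makes the large ribosomal RNA precursor, polymerase II makes messenger RNAs and most small nuclear RNAs, and polymerase III makes transfer RNAs, 5S ribosomal RNA and other short RNAs. They share several small subunits, and each has catalytic, stalk and initiation subunits of its own. Integrator binds polymerase II early in transcription, cuts nascent RNA with an endonuclease, dephosphorylates the polymerase through a bound phosphatase, and makes the 3' ends of small nuclear RNAs.

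The cells were T47D, a luminal breast cancer epithelial line that expresses the oestrogen receptor. One group received a miR-489 mimic, a synthetic double-stranded copy of that microRNA, and the other received control scramble siRNA. RNA was taken after 72 h, with 3 samples per group, each on its own Illumina array. Neither group carried a further labelled treatment or allele, and the labels name neither the arm nor the sequence of the mimic. Whether the samples came from separate cultures is not stated, so the p-values rest on the spread among these samples, and that spread may be technical.

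The mature miR-489-3p of RefSeq is shown to identify the microRNA, although which arm the mimic copies is not given. RefSeq places it at chr7:93483947-93483968 on the minus strand of GRCh38.p14, and capitals mark the seed, bases 2 to 8.
hsa-miR-489-3p: gUGACAUCacauauacggcagc

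Values are log2 intensities after background correction and quantile normalization. Levels of different probes cannot be compared with each other, so each gene was compared only with itself between groups. A probe was kept if it was detected (detection p below 0.01) on at least 3 of the 6 arrays. A gene was called, and is said to have risen or fallen, at an adjusted p below 0.05 in a limma fit over all 17104 kept probes. Fold changes are mimic over scramble with standard errors from that fit, and a gene with several kept probes is represented by the brightest. Group values are given array by array in the order of replicate numbers 1 to 3.

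Mean raw intensity was 526 to 619 per array, and 16452 to 17346 probes were detected. Over the kept probes, Pearson's r was 0.982 to 0.993 between arrays of 1 group and 0.945 to 0.958 between the groups. All 8 luminal epithelial markers checked, among them KRT8, ESR1 and GATA3, were detected on all 6 arrays. Of the markers of other cell types, 1 of 5 for fibroblasts (COL1A1), 1 of 4 for leukocytes (CD14) and 0 of 3 for endothelium were detected.

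After the mimic, 14 of the 46 measured subunit genes rose, 3 fell and 29 were not called. POLR2E, counted among those that fell, passed the filter through its scramble arrays alone, as did 1 of the CRCP probes. Among all 10503 measured genes 35.7% were called, with 18.4% that rose and 17.3% that fell. The subunits' median log2 fold change was 0.26, against 0.03 over all genes. At probe level, 20 member probes rose and 7 fell among the 66 kept, where 33.9% of all kept probes were called. In 28 of the 46 subunit genes no mimic array overlapped a scramble array, and this held for 51.4% of all genes. The count of subunits that rose was 7 without mimic array 1 or without scramble array 3, and 9 without scramble array 2. Over all kept probes, 5798 were called, and 4111 without mimic array 1, 4208 without scramble array 3 and 4309 without scramble array 2. In bulk RNA, a change in RNA per cell cannot be told apart from a change in the mix of cells.

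**Figure D1:**
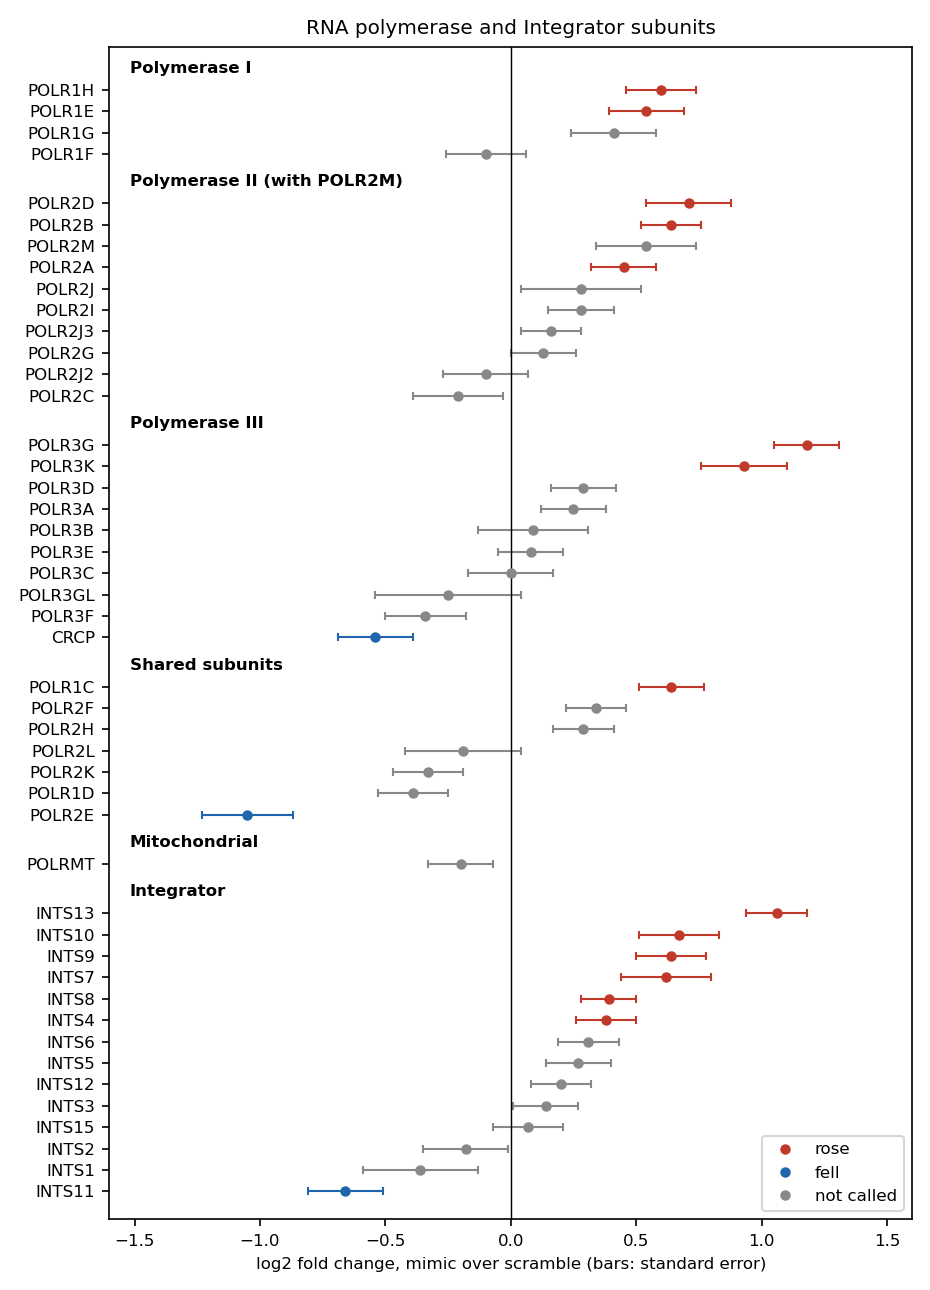
Log2 fold change (mimic over scramble) of each measured subunit gene, grouped by complex, with points for the fitted value, bars for the standard error and colour for the call. POLR3G at 1.18 and INTS13 at 1.06 lie farthest to the right, and POLR2E at -1.05 and INTS11 at -0.66 farthest to the left; the fitted value of POLR2E is no fold, because its mimic arrays give only a bound.

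By complex, 2 of 4 measured polymerase I genes rose, 3 of 9 of polymerase II, 2 of 10 of polymerase III, 1 of 7 shared genes and 6 of 14 of Integrator. Over all measured genes 18.4% rose and 17.3% fell. None of the polymerase I or polymerase II genes fell in the main fit, while 1 gene fell in each of the polymerase III, shared and Integrator groups. The shared gene was POLR2E, whose mimic readings were not above background on any array. The median log2 fold changes were 0.47 for polymerase I, 0.28 for polymerase II, 0.09 for polymerase III, -0.19 for the shared subunits and 0.29 for Integrator. Differences between the complexes were not tested. The polymerase III median was -0.02 without mimic array 1 and 0.23 without mimic array 2. The shared median was 0.05 without scramble array 1. It was also 0.05 with detection on all 6 arrays, a filter that leaves POLR2E out, so its negative sign depended on that gene. The polymerase II median was 0.16 without mimic array 3.

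Of the 17 called subunits, 9 stayed called when any 1 array was left out: POLR1H, POLR1C, POLR2B, POLR2E, POLR3G, POLR3K, INTS9, INTS11 and INTS13. For POLR2E this says nothing of stability, because its mimic readings were not above background on any array. The calls of POLR1E, POLR2D, POLR2A, CRCP, INTS4, INTS7, INTS8 and INTS10 were each lost without at least 1 array, as given beside each gene.

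**Figure D2:**
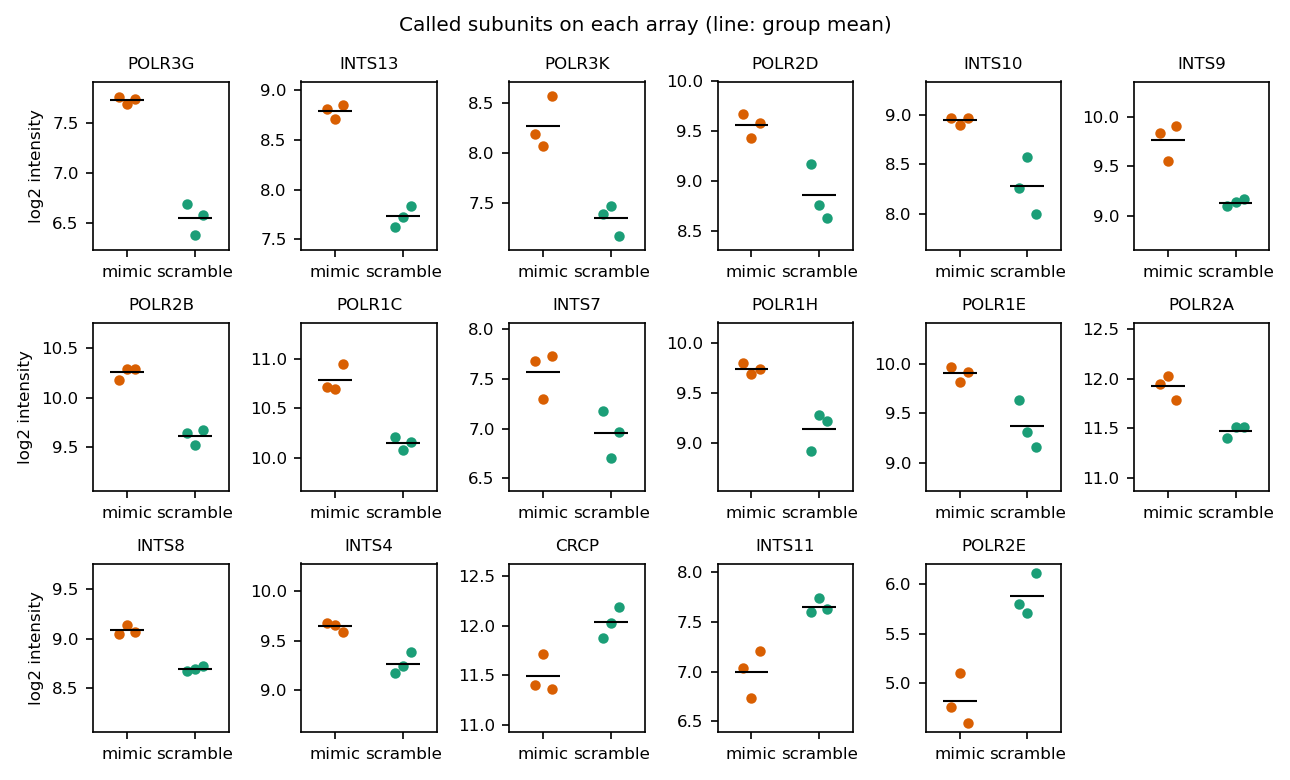
Log2 intensity on each array (points) and group mean (line) for the 17 called subunit genes, mimic left and scramble right in each panel, each panel with its own vertical axis of the same span. The 14 genes that rose and the 3 that fell (CRCP, INTS11 and POLR2E) show no overlap between the groups, which held for 51.4% of all genes. They are shown because they were called, so the separation adds no support to the calls. The mimic points of POLR2E were not above background.

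Promoter sequences are shown for POLR1H, POLR3K and INTS13, called risers whose promoters hold a CCAAT box, and for INTS11, a called faller that holds one too. They run from 250 bases before to 50 after the gene start in the RefSeq table of GRCh38.p14. The regions are chr6:30061015-30061314 (plus strand) for POLR1H, chr16:53559-53858 (minus) for POLR3K, chr12:26937932-26938231 (minus) for INTS13 and chr1:1324611-1324910 (minus) for INTS11. Each is written 5' to 3' along the gene's strand, and capitals mark the CCAAT box, the motif GGGCGG and the motif CCGGAAG on either strand, with adjacent or overlapping matches running together.
POLR1H: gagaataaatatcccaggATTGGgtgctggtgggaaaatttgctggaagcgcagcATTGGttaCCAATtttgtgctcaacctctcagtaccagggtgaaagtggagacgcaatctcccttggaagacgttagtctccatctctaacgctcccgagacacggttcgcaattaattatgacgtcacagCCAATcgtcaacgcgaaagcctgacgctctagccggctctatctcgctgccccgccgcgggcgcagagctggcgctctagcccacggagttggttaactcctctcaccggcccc
POLR3K: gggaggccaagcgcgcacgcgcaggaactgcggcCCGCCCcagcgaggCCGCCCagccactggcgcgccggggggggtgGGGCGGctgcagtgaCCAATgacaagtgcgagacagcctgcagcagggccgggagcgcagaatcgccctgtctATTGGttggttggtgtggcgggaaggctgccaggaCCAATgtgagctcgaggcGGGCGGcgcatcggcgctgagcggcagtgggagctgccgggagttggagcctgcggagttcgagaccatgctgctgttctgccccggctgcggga
INTS13: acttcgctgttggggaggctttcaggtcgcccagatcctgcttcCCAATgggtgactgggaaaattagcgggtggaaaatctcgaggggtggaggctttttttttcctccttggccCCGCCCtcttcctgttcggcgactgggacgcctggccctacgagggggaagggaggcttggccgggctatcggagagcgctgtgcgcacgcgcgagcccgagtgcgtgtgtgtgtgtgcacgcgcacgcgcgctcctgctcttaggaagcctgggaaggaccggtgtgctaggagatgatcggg
INTS11: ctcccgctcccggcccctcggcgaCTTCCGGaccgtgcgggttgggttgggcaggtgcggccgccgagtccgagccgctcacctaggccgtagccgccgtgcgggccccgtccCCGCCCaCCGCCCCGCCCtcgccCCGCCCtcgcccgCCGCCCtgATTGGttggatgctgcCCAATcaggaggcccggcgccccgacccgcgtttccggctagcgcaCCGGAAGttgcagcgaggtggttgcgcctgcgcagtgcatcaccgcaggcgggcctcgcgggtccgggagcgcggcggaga
The table held a promoter for 36 of the 49 subunit genes, and POLR3G was not among them. Of these, 9 rose, 2 fell (INTS11 and POLR2E, the latter with mimic readings at background) and 22 were not called. CCAAT was in 4 of the 9 promoters of genes that rose (INTS13, INTS7, POLR1H and POLR3K), in 1 of 2 of those that fell (INTS11) and in 6 of 22 of those not called, against 34.6% of all 35116 promoters. POLR1H held it 4 times and POLR3K 3 times. The GC box GGGCGG was in 6 of 9, 2 of 2 and 16 of 22 of these promoters, against 45% of all. The ETS motif CCGGAAG was in 3 of 9, 1 of 2 and 9 of 22, against 10.3% of all. The E-box CACGTG was in 0 of 9, 0 of 2 and 5 of 22, against 7.26%. TATAAA was found in POLR2M among the subunits, and in 11.5% of all promoters. The NRF1 motif GCATGCGC was in 1 of 9, 0 of 2 and 3 of 22, against 3.05%. Both strands were searched, and a match describes letters in this window and not a bound site. The 35116 promoters were not limited to genes measured here, so their shares are not matched to the subunits, and differences were not tested.

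In polymerase I, POLR1H and POLR1E rose. POLR1H is the small subunit that takes part in RNA cleavage and transcript release. Its brightest probe read 9.80, 9.69 and 9.74 on the mimic arrays, against 8.92, 9.28 and 9.22 on the scramble arrays. All mimic arrays lay above all scramble arrays, and the log2 fold change was 0.60 ± 0.14 (adjusted p = 0.0129, limma). The 2 dimmer POLR1H probes also rose, by log2 fold changes of 1.14 ± 0.13 and 0.72 ± 0.13. All 3 POLR1H probes therefore rose, with sizes that differed between probes.

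POLR1E is a subunit of the dimer that resembles initiation and elongation factors and helps polymerase I engage its promoter. It had 9.97, 9.82 and 9.92 in the mimic samples, against 9.64, 9.31 and 9.16 in the scramble samples. The groups did not overlap, with scramble array 1 nearest to the mimic arrays. The log2 fold change was 0.54 ± 0.15 (adjusted p = 0.0291, limma), and a second probe rose by 0.71 ± 0.14. The brighter probe's call was lost without mimic array 1 (limma adjusted p = 0.0911), mimic array 3 (0.0852), scramble array 2 (0.0824) or scramble array 3 (0.0964).

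POLR1G, the dimer partner of POLR1E, was not called at 0.41 ± 0.17, and was detected on 3 mimic arrays and 1 scramble array. It was called without scramble array 1 (limma adjusted p = 0.0438), the only scramble array that detected it, so the scramble arrays left give only a bound and no fold is given. POLR1F, a stalk subunit, was at -0.10 ± 0.16, with overlapping groups. The catalytic subunits were not measured above the filter. POLR1A, the largest subunit, was detected on 0 of 6 arrays, and POLR1B, the partner that completes the active site, on 0 mimic and 2 scramble arrays. That POLR1B probe read 4.90, 4.86 and 4.96 with the mimic, against 5.22, 5.50 and 5.63 with scramble, all near background. It was not tested in the main fit. It was called lower with detection on 1 array or no filter (limma adjusted p = 0.0334 and 0.0391). Those p-values set readings at background against a dim signal and are no support for a fall. The other POLR1B probe was detected on 0 of 6 arrays.

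POLR1C and POLR1D form the assembly platform common to polymerases I and III, and their fitted values had opposite signs. POLR1C rose, with 10.72, 10.70 and 10.95 in mimic samples, against 10.21, 10.08 and 10.16 in scramble samples. The groups were separate on every array, at 0.64 ± 0.13 (adjusted p = 0.00727, limma), and a second probe rose by 0.74 ± 0.13. POLR1D was not called, at -0.39 ± 0.14 (limma adjusted p = 0.06) and -0.29 ± 0.14 on its 2 probes. It was called with the same sign under 7 of the alternatives, among them the authors' processed values (-0.36, limma adjusted p = 0.0206).

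Among the subunits common to all nuclear polymerases, POLR2E was called lower with the mimic. This subunit contacts the DNA ahead of the active site. It read 4.76, 5.10 and 4.60 on the mimic arrays, against 5.80, 5.71 and 6.11 on the scramble arrays. The probe was detected on 0 of 3 mimic arrays and 3 of 3 scramble arrays, so only a bound can be given. In the background-corrected values used here, POLR2E was at least 1.41-fold lower with the mimic (adjusted p = 0.00338, limma). Because the probe passed the filter only through the group where it was high, that p sets readings at background against a dim signal and is no support for the fall. For this bound, each mimic array contributed its lowest detected signal wherever the POLR2E probe lay below it, and the scramble mean was divided by the mean of these. It is the only POLR2E probe, and its signal was dim in both groups. The authors' processed values gave a log2 fold change of -0.19, a smaller difference than the bound, so the bound holds only for the values used here.

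The other 4 genes of this shared set were not called. POLR2F and POLR2H were at 0.34 ± 0.12 and 0.29 ± 0.12, and POLR2K and POLR2L at -0.33 ± 0.14 and -0.19 ± 0.23. The groups of POLR2F, POLR2H and POLR2K did not overlap, and those of POLR2L did. POLR2F was called under 7 alternatives and POLR2H under 3, in each case with a positive sign. POLR2L read 8.10, 7.81 and 8.27 with the mimic, against 8.74, 7.96 and 8.07 with scramble, and its sign turned to 0.05 without scramble array 1.

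In polymerase II, POLR2A and POLR2B of the active centre and POLR2D of the stalk rose. POLR2A is the largest, catalytic subunit, whose long repeated tail carries the phosphorylation marks of the transcription cycle. It had 11.95, 12.03 and 11.79 on the mimic arrays, against 11.40, 11.51 and 11.51 on the scramble arrays. The groups did not overlap, and the log2 fold change was 0.45 ± 0.13 (adjusted p = 0.0264, limma). The call was lost without any 1 array other than mimic array 3, with limma adjusted p-values from 0.0605 to 0.079.

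POLR2B completes the active site with POLR2A. It read 10.18, 10.29 and 10.29 with the mimic, against 9.64, 9.52 and 9.67 with scramble. Both groups were tight, and the log2 fold change of 0.64 ± 0.12 (adjusted p = 0.00546, limma) stayed called under every alternative run.

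POLR2D is a subunit of the stalk through which the nascent RNA leaves. Its values were 9.67, 9.43 and 9.58 in mimic samples, against 9.17, 8.76 and 8.63 in scramble samples. The scramble arrays were more spread than the mimic arrays but did not reach them. Its log2 fold change was 0.71 ± 0.17 (adjusted p = 0.0141, limma). The call was lost without mimic array 1 (limma adjusted p = 0.0526) and without scramble array 3 (0.0506). POLR2G, the stalk partner of POLR2D, was at 0.13 ± 0.13, with overlapping groups.

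The remaining polymerase II genes were not called. POLR2I, at the jaw, was at 0.28 ± 0.13. POLR2C, part of the assembly platform, was at -0.21 ± 0.18 on its brightest probe. Its dimmer probe fell, with 8.18, 7.87 and 8.17 in mimic samples, against 8.51, 8.50 and 8.44 in scramble samples (-0.41 ± 0.13, adjusted p = 0.0471, limma). The 2 POLR2C probes had the same sign and differed in the call. POLR2J, POLR2J2 and POLR2J3 are near-identical copies whose probes may share transcripts, so their values are uncertain. They were at 0.28, -0.10 and 0.16, none called.

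POLR2M encodes a protein that associates with polymerase II and also has fusion transcripts with its neighbouring gene. It read 6.19, 6.33 and 5.74 with the mimic, against 5.49, 5.33 and 5.82 with scramble. Mimic array 3 lay within the scramble range, and 0.54 ± 0.20 was not called (limma adjusted p = 0.068). Without mimic array 3 it was called, at 0.71 (limma adjusted p = 0.0368).

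In polymerase III, POLR3G and POLR3K rose and CRCP fell. POLR3G encodes the form of an initiation subunit that is abundant in stem cells and many tumours, and POLR3GL encodes its widely expressed alternative. The POLR3G probe read 7.76, 7.69 and 7.74 on the mimic arrays, against 6.69, 6.38 and 6.58 on the scramble arrays. The gap between the groups was wider than the spread within either. This gave a log2 fold change of 1.18 ± 0.13 (adjusted p = 6.44e-04, limma). The authors' processed values gave 0.48, also called, below the 0.63 of INTS13 there. A second POLR3G probe, detected on 1 mimic array and 0 scramble arrays, was left out by the filter. It read 5.17, 5.17 and 5.60 with the mimic, against 4.52, 4.60 and 4.79 with scramble.

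POLR3GL had 8.98, 9.61 and 8.61 in mimic samples, against 8.81, 9.57 and 9.57 in scramble samples. The groups overlapped, with mimic array 2 in the upper range and scramble array 1 in the lower. In the fit the log2 fold change was -0.25 ± 0.29 (limma adjusted p = 0.543). Those 2 arrays had the lowest limma array weights of the series, and without them POLR3GL was called at -0.78 (limma adjusted p = 0.0165), a check chosen after seeing the data.

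Within each array, the log2 value of POLR3G minus that of POLR3GL was -1.22, -1.92 and -0.88 with the mimic, against -2.12, -3.19 and -3.00 with scramble. Only the shift between groups has a meaning here, because the probes differ. Every mimic array lay above every scramble array, by 1.43 on average. An exact two-sided permutation test gave p = 0.1, which is the smallest that 3 against 3 arrays allow. In the authors' processed values the shift was 0.66, and with no background correction it was 0.90. The exact permutation p was 0.2 in both, above that smallest value, so the groups were not fully separated there.

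**Figure D3:**
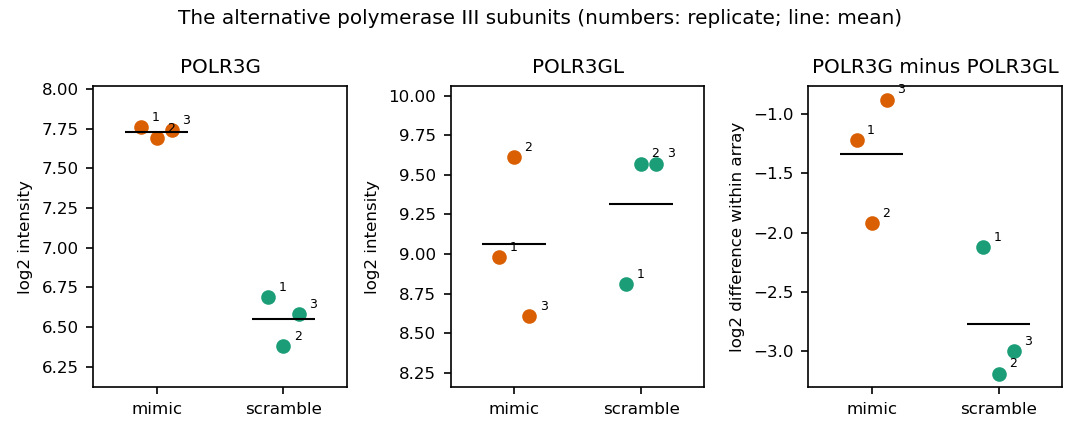
Log2 intensity of POLR3G (left) and POLR3GL (middle) and their within-array log2 difference (right) on each array, with replicate numbers beside the points and lines at the group means. POLR3G separates mimic from scramble, POLR3GL overlaps, and the difference is from -1.92 to -0.88 in mimic samples and from -3.19 to -2.12 in scramble samples.

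POLR3K is the small subunit for RNA cleavage, termination and reinitiation, the counterpart of POLR1H in polymerase I. It read 8.19, 8.07 and 8.57 with the mimic, against 7.39, 7.47 and 7.17 with scramble. The groups were well separated, with mimic array 3 the highest. The fitted log2 difference was 0.93 ± 0.17 (adjusted p = 0.00466, limma), and 0.49 in the authors' processed values.

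CRCP, a stalk subunit of polymerase III that is also known as a component of the CGRP receptor, fell. Its brightest probe read 11.40, 11.71 and 11.36 in mimic samples, against 11.88, 12.03 and 12.19 in scramble samples. The groups did not overlap, with mimic array 2 nearest to scramble. The log2 fold change was -0.54 ± 0.15 (adjusted p = 0.0264, limma). The other 3 kept CRCP probes were dim. One was detected on 2 mimic and 3 scramble arrays and fell, at -0.63. Another was detected on 0 mimic and 3 scramble arrays, so it gives only a bound, at least 1.27-fold lower with the mimic. The last, detected on 1 mimic and 3 scramble arrays, was not called at -0.38. The brightest probe's call was lost without mimic array 1 (limma adjusted p = 0.0869), mimic array 3 (0.0934), scramble array 2 (0.0655) or scramble array 3 (0.0906).

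The catalytic subunits of polymerase III were not called. POLR3A, the largest, had 10.23, 10.07 and 10.11 with the mimic, against 9.86, 10.01 and 9.80 with scramble. The groups were close and did not overlap on this probe, at 0.25 ± 0.13 (limma adjusted p = 0.166), and a second POLR3A probe was at 0.03. POLR3B, which completes the active site, was at 0.09 ± 0.22. POLR3D and POLR3E, the dimer that resembles initiation factors, were at 0.29 ± 0.13 and 0.08 ± 0.13. POLR3C and POLR3F, which form the initiation subcomplex with POLR3G or POLR3GL, were at 0.00 ± 0.17 and -0.34 ± 0.16. Within that subcomplex, POLR3G was the member called.

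The mitochondrial polymerase POLRMT read 8.14, 8.24 and 8.21 on the mimic arrays, against 8.22, 8.55 and 8.42 on the scramble arrays. The groups overlapped, and -0.20 ± 0.13 was not called (limma adjusted p = 0.275). Among 5 measured mitochondrial transcription factors, 3 rose and none fell (all measured genes: 18.4% and 17.3%). TFAM, which packages mitochondrial DNA and starts transcription, rose by a log2 fold change of 0.72 ± 0.14. TFB1M, a methyltransferase of the mitochondrial ribosome, rose by 0.55 ± 0.15, and TEFM, the elongation factor of POLRMT, rose by 0.50 ± 0.11. The TFB1M call was lost without mimic array 1, mimic array 3 or scramble array 1 (limma adjusted p from 0.052 to 0.0783).

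In Integrator, 6 of 14 measured genes rose and 1 fell (all measured genes: 18.4% and 17.3%). The count that rose was 2 without mimic array 1, mimic array 3 or scramble array 3, and 3 without scramble array 2. The module that cuts RNA holds the endonuclease INTS11, its inactive relative INTS9 and the scaffold INTS4. INTS11 fell, with 7.04, 6.74 and 7.21 in mimic samples, against 7.60, 7.74 and 7.63 in scramble samples. The groups did not overlap, at -0.66 ± 0.15 (adjusted p = 0.0128, limma). The second INTS11 probe fell by 0.80 ± 0.14 on the log2 scale, and the authors' processed values gave -0.28 for the first.

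INTS9 rose, with 9.84, 9.55 and 9.91 on the mimic arrays, against 9.10, 9.14 and 9.17 on the scramble arrays. The scramble arrays were nearly equal, and mimic array 2 was the lowest of its group but well above them. Its log2 fold change was 0.64 ± 0.14 (adjusted p = 0.00972, limma). The direct partners INTS9 and INTS11 thus had calls of opposite sign, each kept without any 1 array.

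INTS4 was uncertain. Its brightest probe rose (0.38 ± 0.12, adjusted p = 0.0425, limma), and its 2 dimmer probes were at -0.07 and -0.35, not called. The mean over its probes was at -0.01, and the call was lost without any 1 array. The pseudogene INTS4P2, whose probe can share transcripts with INTS4, rose by 0.44 ± 0.14 (adjusted p = 0.0386, limma).

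INTS13 and INTS10 belong to the module that binds nucleic acid and transcription factors, with INTS14. INTS13 read 8.81, 8.71 and 8.85 with the mimic, against 7.63, 7.73 and 7.84 with scramble. The groups were more than a log2 unit apart on average, at 1.06 ± 0.12 (adjusted p = 7.86e-04, limma), and the second INTS13 probe rose by 0.95 ± 0.17. The authors' processed values gave 0.63. INTS10 had 8.97, 8.90 and 8.97 in mimic samples, against 8.26, 8.58 and 8.0 in scramble samples. The mimic arrays were nearly equal and the scramble arrays were spread below them. The log2 fold change of INTS10 was 0.67 ± 0.16 (adjusted p = 0.0158, limma). Its call was lost without mimic array 1 (limma adjusted p = 0.0512), mimic array 3 (0.0542) or scramble array 3 (0.0508). INTS15, which also binds this module, was at 0.07 ± 0.14.

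In the phosphatase module INTS8 rose and INTS6 was not called. INTS6, the subunit that holds the phosphatase, read 9.34, 9.53 and 9.52 with the mimic, against 9.21, 9.16 and 9.08 with scramble. The groups did not overlap, but 0.31 ± 0.12 was not called (limma adjusted p = 0.0844). It was called with the same sign under 3 alternatives, among them the authors' processed values (0.24, limma adjusted p = 0.0264). A second INTS6 probe, detected on 0 mimic arrays and 2 scramble arrays, was left out by the filter. It read 5.14, 5.24 and 4.45 with the mimic, against 5.44, 5.03 and 5.88 with scramble, so its groups overlapped and its means ran the other way. The paralogue INTS6L was detected on 0 of 6 arrays, so the pair was not compared. INTS8, which recruits the phosphatase, rose by 0.39 ± 0.11 (adjusted p = 0.0312, limma), and its call was lost without any 1 array (limma adjusted p from 0.0635 to 0.0828). INTS5 was at 0.27 ± 0.13.

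Of the backbone, INTS7 rose, with 7.68, 7.30 and 7.73 in mimic samples, against 7.18, 6.71 and 6.97 in scramble samples. The lowest mimic array and the highest scramble array lay close together. This gave a log2 fold change of 0.62 ± 0.18 (adjusted p = 0.0285, limma). The call was lost without mimic array 1 (limma adjusted p = 0.0916), mimic array 3 (0.0991), scramble array 2 (0.0896) or scramble array 3 (0.0719), and the log2 fold change was 0.26 in the authors' processed values. INTS1, INTS2 and INTS12, which build the core, were at -0.36 ± 0.23, -0.18 ± 0.17 and 0.20 ± 0.12. INTS3, which is also a subunit of a single-stranded DNA binding complex, was at 0.14 ± 0.13. INTS7 and INTS8 each had 1 probe, so no second probe bears on their calls.

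**Figure D4:**
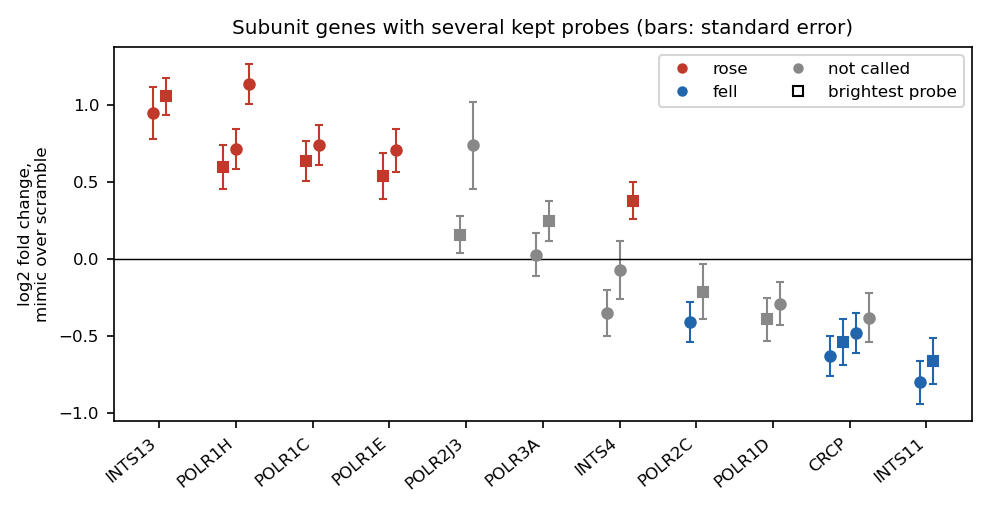
Log2 fold change (mimic over scramble) of each kept probe of the 11 subunit genes with several kept probes, with squares for the brightest probe, circles for the others, bars for the standard error and colour for the call. All kept probes of INTS13, POLR1H, POLR1C and POLR1E rose and both of INTS11 fell, while INTS4 spans -0.35 to 0.38. The CRCP probe at -0.48 was detected on 0 mimic arrays, so its fitted value is no fold and only a bound applies.

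Factors that work with these enzymes were taken from lists chosen with earlier results known. Their counts are descriptions and were not tested against the shares of all measured genes. Of 7 measured polymerase I factors, 3 rose and none fell (all measured genes: 18.4% and 17.3%). TAF1B and TAF1A, subunits of the promoter selectivity factor, rose by log2 fold changes of 1.55 ± 0.14 and 1.00 ± 0.15, and UBTF, which opens ribosomal DNA, rose by 0.75 ± 0.15. In the authors' processed values these were 0.68, 0.21 and 0.27. The initiation factor RRN3 was at 0.10 ± 0.12.

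Of 15 measured polymerase III factors, 2 rose and 4 fell (all measured genes: 18.4% and 17.3%). GTF3C2 and GTF3C4, subunits of the factor that recognises transfer RNA genes, fell by 1.54 ± 0.14 and 0.86 ± 0.14 on the log2 scale. GTF3C2 read 8.78, 8.92 and 8.99 with the mimic, against 10.56, 10.23 and 10.53 with scramble, with a wide gap between the groups. SNAPC2, a subunit of the factor that serves small nuclear RNA promoters, fell by 1.19 ± 0.14 on the log2 scale, and the authors' processed values gave -0.56. GTF3C5 also fell, at -0.37 ± 0.12 (adjusted p = 0.041, limma). The genes that rose were GTF3C3, at 0.37 ± 0.12 (adjusted p = 0.0471, limma), and SNAPC4, at 0.61 ± 0.19 (adjusted p = 0.0397, limma). Subunits of the same factors thus had calls of opposite sign. The repressor MAF1 was at -0.29 ± 0.14. The count of factors that rose was 0 without mimic array 1, mimic array 3, scramble array 2 or scramble array 3, and 1 without mimic array 2 or scramble array 1.

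Of 17 measured general factors of polymerase II, 9 rose and 1 fell (all measured genes: 18.4% and 17.3%). MNAT1, which assembles the kinase of TFIIH, read 9.43, 9.45 and 9.22 on the mimic arrays, against 6.85, 7.30 and 7.22 on the scramble arrays. The groups were far apart, at 2.24 ± 0.16 on the log2 scale (adjusted p = 1.54e-04, limma), and at 1.33 in the authors' processed values. The TFIIE subunit GTF2E1 rose by a log2 fold change of 1.20 ± 0.16 and the TATA-binding protein gene TBP, which serves all nuclear polymerases, by 0.88 ± 0.13. The count that rose was 3 without mimic array 1 or mimic array 3, and 5 without any 1 scramble array. The gene that fell was GTF2F1, at -0.47 ± 0.14 (adjusted p = 0.035, limma), a call lost without any 1 array.

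Of 10 measured pausing and elongation genes, 1 rose and 1 fell (all measured genes: 18.4% and 17.3%). CDK9, the kinase that releases paused polymerase, fell by 0.51 ± 0.13 on the log2 scale, a call lost without mimic array 1, mimic array 3 or scramble array 2 (limma adjusted p from 0.0624 to 0.0682). SUPT4H1, a subunit of the pausing and elongation factor DSIF, rose by 0.48 ± 0.13, a call lost without mimic array 1, mimic array 3 or scramble array 3 (limma adjusted p from 0.0677 to 0.0830).

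Of 6 Integrator partners, 2 rose and 2 fell (all measured genes: 18.4% and 17.3%). The count that rose was 1 without mimic array 1, mimic array 3, scramble array 2 or scramble array 3, and the count that fell was 1 without any 1 array other than mimic array 2. NABP1, a single-stranded DNA binding protein that partners INTS3, rose by a log2 fold change of 1.19 ± 0.23. PPP2R1A, the scaffold of the phosphatase that Integrator recruits, read 10.90, 11.07 and 10.92 in mimic samples, against 11.84, 11.99 and 11.97 in scramble samples. The groups were about a log2 unit apart, at -0.97 ± 0.12 (adjusted p = 0.00108, limma). The catalytic subunit gene PPP2CA was at 0.09 ± 0.13, with overlapping groups. INIP, another INTS3 partner, fell by 0.50 ± 0.14 on the log2 scale, and its call was lost without any 1 array other than mimic array 2 (limma adjusted p from 0.0584 to 0.095).

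Of 8 measured polymerase assembly genes, 4 rose and 1 fell (all measured genes: 18.4% and 17.3%). RPAP3, a chaperone adaptor, rose by a log2 fold change of 0.63 ± 0.13 and RPAP2, which helps import polymerase II into the nucleus, by 0.60 ± 0.13. The RPAP2 value was 0.13 in the authors' processed values and not called there (limma adjusted p = 0.0983). RUVBL1, an ATPase of the assembly chaperone, rose by 0.59 ± 0.17, a call lost without mimic array 1, mimic array 3, scramble array 2 or scramble array 3 (limma adjusted p from 0.0860 to 0.0974). The gene that fell was its partner RUVBL2, at -0.53 ± 0.15 (adjusted p = 0.03, limma). The count that fell was 0 without any 1 array other than scramble array 3, and the count that rose was 2 without mimic array 1.

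**Figure D5:**
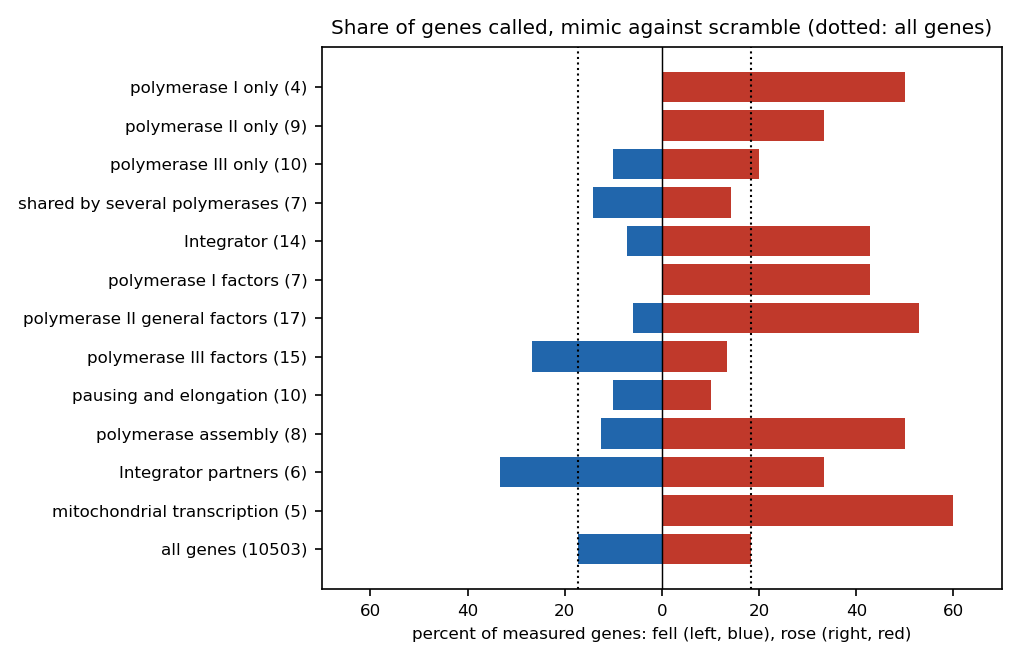
Percent of measured genes that fell (left of zero) or rose (right of zero) in each list, with the number of measured genes in brackets and dotted lines at the percentages of all genes, 17.3 and 18.4. The bars of the shared subunits, the polymerase III factors and the pausing genes stop short of the right-hand line, and those of the polymerase III factors and the Integrator partners pass the left-hand one.

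Among members that are not subunits, 3 of the POLR2J4 probes were kept and none was called, at -0.48, -0.34 and 0.08. INTS6-AS1 was detected on 3 of 3 mimic arrays and 0 of 3 scramble arrays. It read 5.56, 5.83 and 5.44 with the mimic, against 5.35, 5.13 and 4.90 with scramble, and it was not called (limma adjusted p = 0.0544). The probe passed the filter through its mimic arrays alone. That p therefore sets a dim signal against readings at background and is no support for a rise. Of all 87 member probes, 16 were detected on 0 arrays.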

How the data were processed

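RNA from 3 mimic and 3 scramble samples was hybridised to 1-colour Illumina arrays. Per the file headers, the deposited table used here pairs a linear intensity, not normalized, with a detection p-value on each array, for 47322 probes. Its software is not named there or in the labels. A deposited table of the authors' processed intensities served as an alternative. The submitters' processing notes name lumi 3.2.2; which settings it ran with was not given in these sources.

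Background taken from the detection p-values was removed by normexp (nec, offset 16) before quantile normalization and log2. This scaling removes any change in total RNA per cell. Probes detected on at least 3 of 6 arrays at a detection p below 0.01 were kept, 36.1% of all. Groups were compared with lmFit and eBayes (limma 3.58.1, R 4.3.3), two-sided, with Benjamini-Hochberg adjustment over all 17104 kept probes. The fit was tested on simulated data. Of all probes, 30113 had 1 gene symbol in the platform annotation and 8 had several, and 30074 of the probes with 1 symbol were matched by gene ID to a RefSeq table of GRCh38.p14.

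Array by array values are given for up to 4 called members of each complex with the largest fold change, and, in a complex with none called, for the 2 of smallest p. The same was done for the catalytic subunits and the paralogues POLR3G, POLR3GL, INTS6 and INTS6L. From each further list, up to 3 called genes with the largest fold change were named. Other genes given with array values, and RRN3, MAF1, PPP2CA, GTF2F1, RUVBL2, GTF3C3, GTF3C5 and SNAPC4, were chosen after their values were seen. The members and lists were chosen with earlier results of these data known.

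Alternatives changed the background correction (none, or offset 50), the normalization (median scaling or cyclic loess), the source (the authors' processed values) and the filter (detection on 1 array, on all 6, or none). Others added the replicate number as a block, trend with robust variances, or array weights, averaged a gene's probes, or left out single arrays. Deviations from the group means of arrays with the same replicate number correlated at 0.356, 0.450 and -0.107. Those of arrays with unlike numbers correlated at -0.495 to 0.346. These values do not settle whether the numbers pair the samples, and the main fit did not pair them. The number of arrays limits the precision.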

Additional observations from a re-analysis of the deposited data

How the results depend on the processing

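All 17 subunit calls kept their direction under every alternative that tested them, except INTS4, which came to -0.01 as a mean over its probes. For POLR2E a kept direction is no sign of stability, because its mimic readings were not above background on any array. The replicate number was also used as a block, although pairing was not established. The block gave 26 member probes called (27 without it), with 13 subunits that rose and 3 that fell, and lost the INTS4 call. Over all kept probes it gave 6680 calls, against 5798 without it. No call was lost with array weights, the authors' processed values, no background correction, median scaling, an offset of 50 or trend and robust, and 4 were lost with no filter. With cyclic loess or detection on 1 array the INTS4 call alone was lost. With detection on 1 array or no filter, POLR1B, not tested in the main fit, was called lower, and the second POLR3G probe was called higher. Those calls set readings at background against a dim signal and are no support for a change. POLR2E could not be tested with detection on all 6 arrays. Leaving out 1 array gave 16 to 24 member probes called, 7 to 12 subunits that rose and 2 to 3 that fell. Over all kept probes, leaving out 1 array gave 3939 to 5573 calls, against 5798, so the drop was not confined to these members. The medians then ranged from 0.39 to 0.52 for polymerase I, 0.16 to 0.34 for polymerase II, -0.02 to 0.23 for polymerase III, -0.34 to 0.05 for the shared subunits and 0.25 to 0.35 for Integrator. Other medians that moved were 0.25 (authors' processed values), 0.30 (no background correction) and 0.30 (no filter) for polymerase I. For polymerase II they were 0.14 (authors' processed values), 0.14 (no background correction), 0.19 (offset of 50) and 0.35 (median scaling). Polymerase III gave 0.20 with array weights and 0.20 with median scaling. The shared subunits gave 0.05 with detection on all 6 arrays, and Integrator 0.21 (authors' processed values) and 0.42 (median scaling). Median scaling put the median of all kept probes at 0.10, and the cause of these shifts was not tested. Without scramble array 1 and mimic array 2, the arrays of lowest weight, a check chosen after seeing the data, the polymerase III median was 0.25 and the shared median 0.17, and the calls of POLR2A, INTS4 and INTS8 were lost.

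Sign changes were otherwise among genes not called. Leaving out 1 array, POLR1F ranged from -0.23 to 0.00, POLR2L from -0.34 to 0.05, POLR3B from -0.10 to 0.29, POLR3C from -0.10 to 0.16 and INTS15 from -0.01 to 0.15. POLR1F came to 0.01 (array weights), 0.00 (median scaling) and 0.09 (without both arrays of lowest weight). POLR2L came to 0.17 without both. POLR3C came to 0.12 (array weights), 0.14 (median scaling) and 0.23 (without both). INTS15 came to -0.01 (array weights) and -0.03 (without both). Signals near background, as for POLR2E and POLR1B, limit the folds.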
